A study of Homo sapiens with 15 samples.

Results

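The levels of 51 genes that condense, attach, pull apart and check the chromosomes in mitosis are described here after delivery of mRNA in lipid nanoparticles. The cells were HepG2, an established cell line from a human liver tumour. The genes were taken by symbol from a list of mitotic kinases, kinesins, spindle checkpoint, anaphase-promoting complex and centromere genes. All 51 were present among the 41412 rows of the count matrix, and all 51 had enough counts to be tested, as did 18380 rows in all. The study holds 5 groups of 3 biological replicates. Cells were lysed 48 h after transfection. One group was left untransfected. The other 4 received 1 µg of mRNA for enhanced green fluorescent protein (eGFP) in a lipid nanoparticle reagent named NanoLNP. That mRNA was non-cloaked, or was first exposed to CR-3, the cloaking reagent, at a weak grade (0.1 M, 0.5 h, 25 °C), a medium grade (0.5 M, 1 h, 30 °C) or a strong grade (1 M, 2 h, 37 °C). The series asks how this cloaking of an mRNA alters gene expression as a whole. Particles alone were given to no group, so a difference from untransfected cells covers particle and mRNA together.

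A cell enters mitosis when cyclin A and cyclin B activate the kinase CDK1, with help from the CDC25 phosphatases and the Polo-like and Aurora kinases. Condensins fold the chromosomes, kinetochores tie them to microtubules, and kinesins build and slide the spindle. The spindle checkpoint holds the anaphase-promoting complex, a ubiquitin ligase, in check until every kinetochore is attached. The complex, with its activators CDC20 and FZR1, then marks securin (PTTG1) and cyclin B for destruction, which frees separase (ESPL1) to cut the cohesin rings that hold sister chromatids together. Dividing tumour lines such as HepG2 carry these transcripts at steady levels in a culture in which only some cells are in mitosis at any time.

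Many of these genes share promoter elements. The cell cycle genes homology region, with the core TTTGAA, is bound through the MuvB complex, which represses the genes in resting cells as part of DREAM and activates them in dividing cells together with B-MYB and FOXM1. The CCAAT box is bound by NF-Y. RefSeq promoter windows (GRCh38.p14, 300 bases, from 250 before to 50 after the gene start) matched 44 of the 51 genes by symbol, and the 7 unmatched were AURKA, BUB3, TTK, UBE2C, BIRC5, TPX2 and FOXM1. The sequences are shown to let the shared elements be seen in genes that fell, rose or were not called after transfection (a call is an adjusted p below 0.05). Only windows with TTTGAA, on either strand, upstream of the start could be shown. The stretch was placed around that match, so each holds it by choice. Each is a stretch of 80 bases upstream of the RefSeq start, read 5′ to 3′ in the direction of the gene. Capitals mark TTTGAA and CCAAT on either strand (TTCAAA and ATTGG on the other), and overlapping matches run together. The stretches are CCNB2 (chr15:59105057-59105136, plus strand), PLK1 (chr16:23678800-23678879, plus strand) and PRC1 (chr15:90994536-90994615, minus strand), not called in all transfected against untransfected cells; CDC20 (chr1:43358856-43358935, plus strand), higher; and BUB1B (chr15:40160986-40161065, plus strand), ESPL1 (chr12:53268208-53268287, plus strand), KIF11 (chr10:92593042-92593121, plus strand), HMMR (chr5:163460550-163460629, plus strand) and NCAPG (chr4:17810884-17810963, plus strand), lower.
CCNB2: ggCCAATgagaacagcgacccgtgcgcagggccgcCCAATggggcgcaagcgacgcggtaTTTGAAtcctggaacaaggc
PLK1: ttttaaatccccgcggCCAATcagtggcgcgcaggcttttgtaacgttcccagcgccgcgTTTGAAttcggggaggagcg
PRC1: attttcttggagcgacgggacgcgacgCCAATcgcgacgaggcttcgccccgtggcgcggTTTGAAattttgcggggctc
CDC20: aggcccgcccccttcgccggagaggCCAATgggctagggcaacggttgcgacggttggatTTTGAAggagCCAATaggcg
BUB1B: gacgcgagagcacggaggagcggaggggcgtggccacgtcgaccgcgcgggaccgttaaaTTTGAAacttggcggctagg
ESPL1: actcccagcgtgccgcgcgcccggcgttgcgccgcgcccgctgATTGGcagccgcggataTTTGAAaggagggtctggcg
KIF11: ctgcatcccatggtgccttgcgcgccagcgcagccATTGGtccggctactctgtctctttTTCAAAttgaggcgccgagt
HMMR: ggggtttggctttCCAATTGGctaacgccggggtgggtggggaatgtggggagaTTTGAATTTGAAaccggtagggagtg
NCAPG: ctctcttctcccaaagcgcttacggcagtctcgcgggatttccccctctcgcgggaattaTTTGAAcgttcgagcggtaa

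TTTGAA, on either strand, stood in 32 of the 44 windows (72.7%), against 15.2% of the 35116 windows of the same length in the table. It stood in 13 of 16 windows of genes that fell, in 1 of 2 of genes that rose (CDC20, not PTTG1) and in 18 of 26 of genes that were not called. CCAAT stood in 31 of the 44 windows (70.5%), against 34.6% of all windows, and 2 or more CCAAT boxes in 17 (38.6%), against 10.8%. The variant core TTTAAA stood in 16 (36.4%), against 12.2%. In the sequences above the TTTGAA nearest the start began 29 bases upstream in CCNB2 and in PLK1, 23 in BUB1B and 65 in CDC20. TTTGAA was thus present among genes that fell, rose and were not called. A match of letters is a description and not a bound site.

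The libraries held 57128519 (weak-cloaked replicate 1) to 78548789 counts, and the 51 genes together took 0.340% to 0.458% of the counts of a library. The lowest count of a gene in any library was 7 for TTK, 9 for SMC2 and 86 for CENPE, where counting error is not small, and at least 138 for the others. In a principal component analysis of all tested genes the first axis, with 21.1% of the variance, placed the untransfected libraries between -70.5 and -68.6, weak-cloaked replicate 1 at -51.6 and the other 11 transfected libraries between -7.8 and 44.1. Weak-cloaked replicate 1 thus stood apart from its group on this axis. ALB, the main plasma protein made by hepatocytes, was between 4490 and 6920 CPM (counts relative to the TMM-scaled library size) in every library, while PTPRC, CD3E, COL1A2, KRT5 and KRT14, markers of leukocytes, fibroblasts and squamous epithelium, stayed below 0.5 CPM in every library. Among markers of other cells KRT17 and TFF1 were higher after transfection (log2 1.66 and 1.84) and PDGFRB and VWF lower (-1.42 and -1.24), all 4 below 20 CPM; LYZ, at 871 to 1530 CPM, was not called. Of 10 hepatocyte markers 3 were lower and 2 higher. Summed marker levels in untransfected and transfected libraries were 14900 to 18100 and 15800 to 20300 CPM for hepatocytes, 1120 to 1540 and 878 to 1250 for leukocytes (nearly all LYZ), 13.5 to 15.4 and 10.1 to 13.4 for fibroblasts and endothelium, and 206 to 293 and 225 to 286 for other epithelia (mostly EPCAM). The part of these markers in the results was not tested.

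After transfection 16 of the 51 genes fell and 4 rose, while 31 did not pass the test. Genes that fell included the condensin gene NCAPG, the spindle kinesins KIF11 and KIF15, the kinetochore genes NUF2 and SPC25, the ubiquitin ligase subunit CDC27 and the proliferation marker MKI67. Genes that rose were PTTG1, BIRC5, CDC20 and UBE2C. The B cyclins CCNB1 and CCNB2, the transcription factor FOXM1, the spindle factor TPX2 and topoisomerase TOP2A were within 0.03 of 0 on the log2 scale. The test set the mean of the 4 transfected groups against that of untransfected cells (edgeR quasi-likelihood, Benjamini-Hochberg adjustment over all 18380 genes, called at an adjusted p below 0.05). Over all tested genes it called 23.1%, 12.7% lower and 10.4% higher; over the 51 genes the shares were 39.2%, 31.4% and 7.84%. Their median log2 fold change was -0.29 (range -1.6 to 0.85), against -0.05 for all tested genes. Summed over the 51 genes the level was 3746 ± 142 CPM (SD, n = 3) in untransfected cells, 3649 ± 73.2 with non-cloaked, 4091 ± 154 with weak-cloaked, 4120 ± 164 with medium-cloaked and 4053 ± 129 with strong-cloaked mRNA (abundant genes dominate this sum). The order turned with the scaling: as a share of all counts of a library the 51 genes took 0.425% ± 0.0177 in untransfected cells, against 0.360% ± 0.0195, 0.405% ± 0.0488, 0.398% ± 0.0199 and 0.381% ± 0.0114, so the cloaked groups were above untransfected cells on the TMM scale and below them by total counts. In bulk RNA, fewer cells in mitosis and less of a transcript per cell cannot be told apart.

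**Figure D1:**
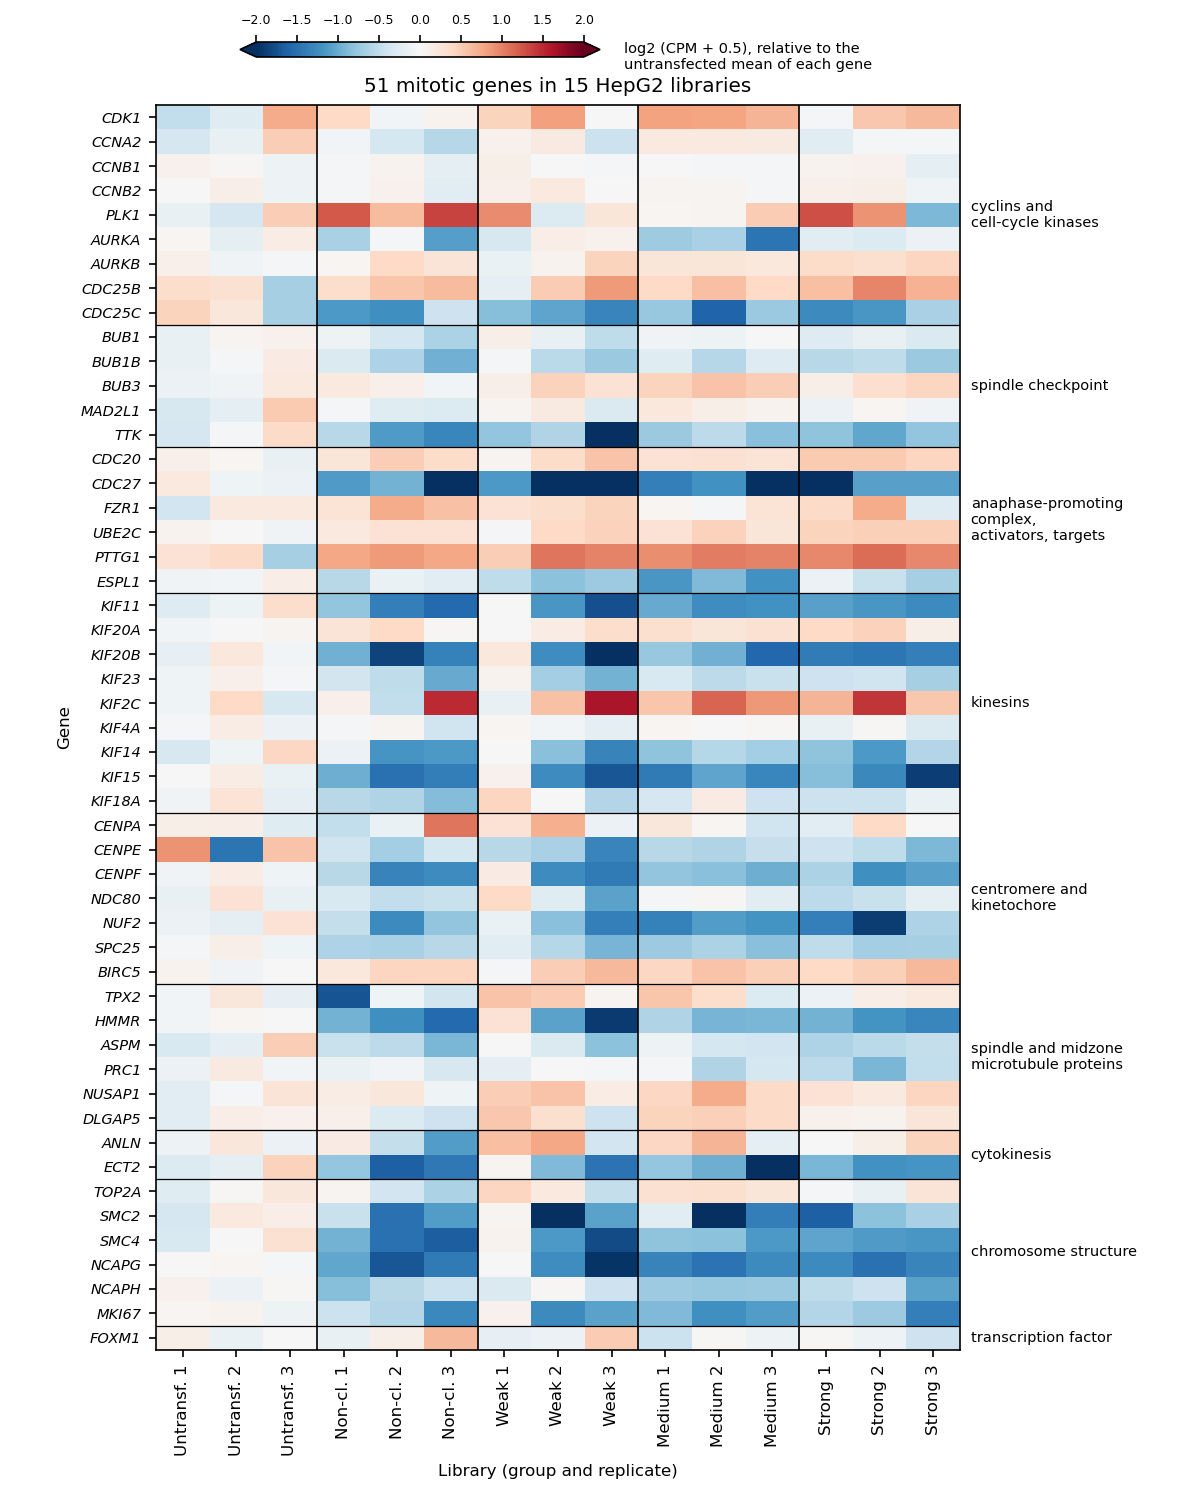
Level of each of the 51 genes (rows, by role) in each of the 15 libraries (columns), as log2 (CPM + 0.5) relative to the mean of the 3 untransfected libraries; colours are capped at -2 and 2. Rows such as NCAPG, KIF15 and SMC4 are blue in every transfected library but weak-cloaked replicate 1, PTTG1 is red in every transfected library, and CCNB1 and CCNB2 are near white throughout.

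Many of the 20 calls ended when an untransfected library was left out. Such a fit has fewer samples, and the standard errors of the calls it lost were wider. Without untransfected replicate 1, 2 and 3, 11, 10 and 8 of the 20 were still called and 9, 10 and 12 were not; 0, 1 and 3 other genes came in, so each count was 11. Leaving out weak-cloaked replicate 1 raised the count to 28 (8 higher, 20 lower). CDC27, ESPL1, NCAPG, PTTG1 and SPC25 were called in all 23 alternatives, and no call changed sign in any of them. Scaling by total counts moved the median of all genes from -0.05 to -0.28 and gave 1 higher and 22 lower in place of 4 and 16, with CDC20, UBE2C and BIRC5 no longer called (log2 0.14, 0.11 and 0.21). Offsets for transcript length and GC content gave 9 higher and 13 lower. The shares of all tested genes called under these alternative settings are not given here. The changed counts thus stand without a background, and a shift across all genes cannot be told from one in this set.

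**Figure D2:**
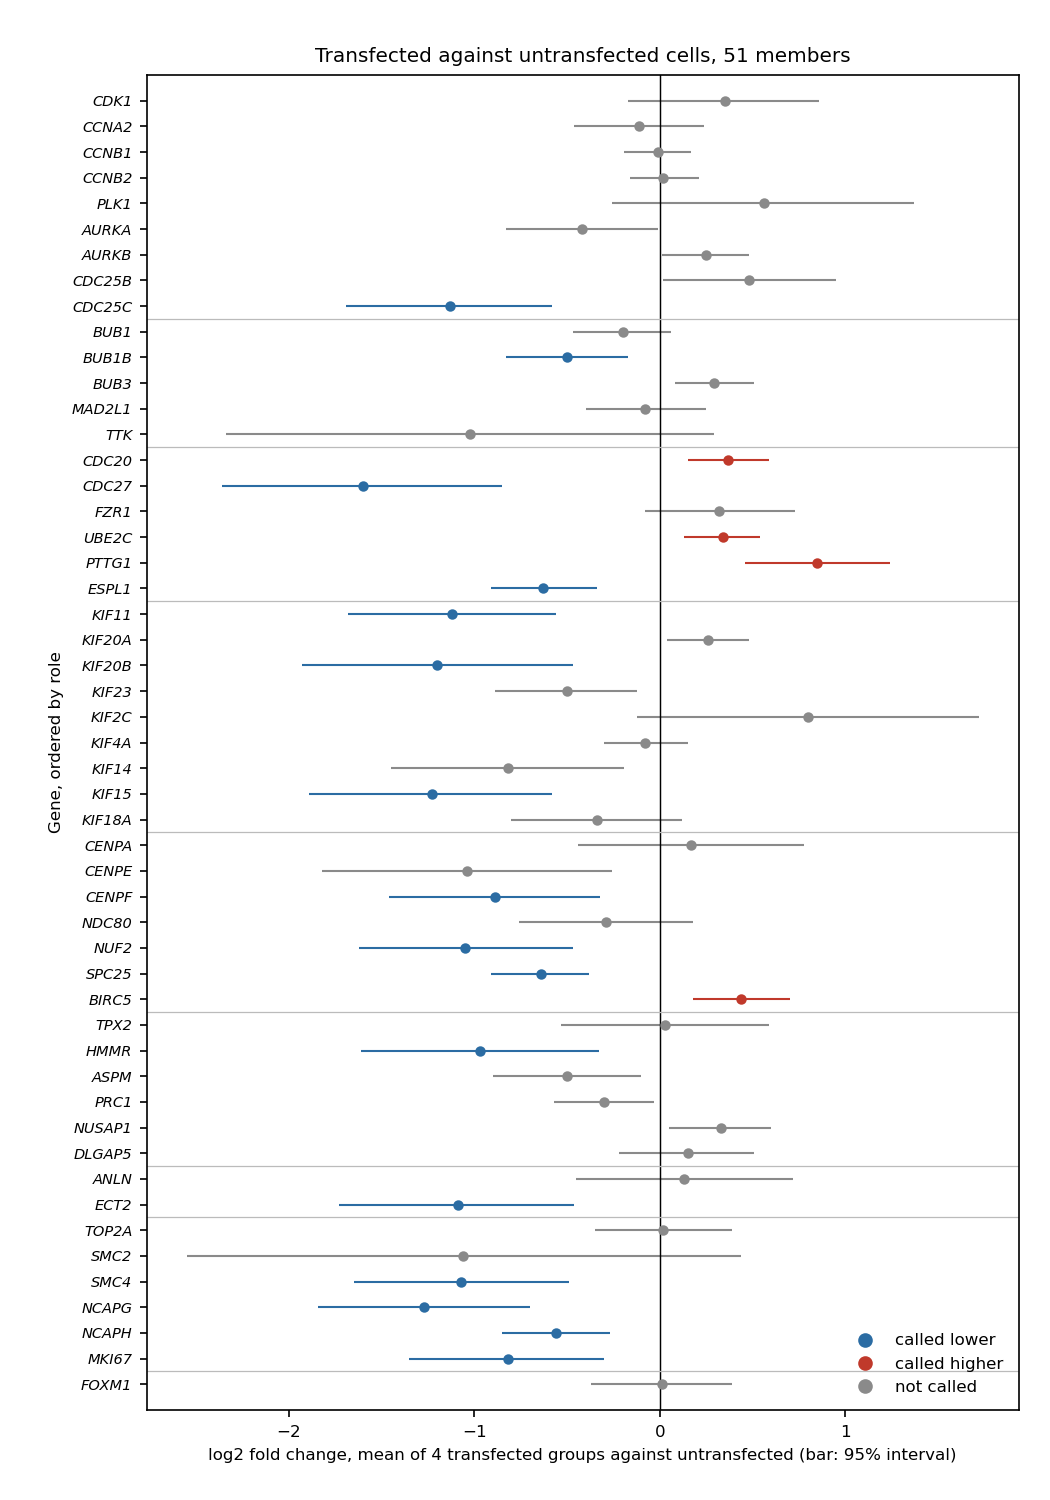
Log2 fold change of each of the 51 genes, 4 transfected groups pooled against untransfected cells, with its 95% interval, ordered by role; blue genes were called lower, red genes higher and grey genes not called. CDC27 lies farthest to the left at -1.6, PTTG1 farthest to the right among called genes at 0.85, and TTK and SMC2 have the widest intervals.

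Among the 6 genes of chromosome structure, 4 fell and none rose, with a median log2 fold change of -0.94. NCAPG, a subunit of condensin I, measured 26.5, 27.3 and 25.7 in untransfected cells, 12.7, 7.76 and 9.68 with non-cloaked, 26.3, 10.9 and 6.41 with weak-cloaked, 10.1, 9.16 and 10.7 with medium-cloaked and 10.7, 9.11 and 10.3 CPM with strong-cloaked mRNA. Every transfected library but weak-cloaked replicate 1 lay below the lowest untransfected value, and that library, at 26.3, lay within the untransfected range. The log2 fold change was -1.27 ± 0.26 (SE; adjusted p = 0.0059). SMC4, the ATPase shared by condensin I and II, measured 30.9, 37.7 and 47.3 in untransfected cells, 19.6, 13.2 and 11.8 with non-cloaked, 40.0, 16.8 and 10.7 with weak-cloaked, 21.6, 21.4 and 17.0 with medium-cloaked and 18.1, 17.1 and 16.8 CPM with strong-cloaked mRNA, again with only weak-cloaked replicate 1 at the untransfected level, and fell by 1.07 ± 0.27 on the log2 scale (adjusted p = 0.014). NCAPH, the condensin I subunit that closes the ring, measured 39.7, 34.7 and 38.2 in untransfected cells, 20.5, 25.2 and 27.8 with non-cloaked, 30.5, 38.1 and 28.0 with weak-cloaked, 22.4, 22.1 and 22.2 with medium-cloaked and 26.1, 28.0 and 17.7 CPM with strong-cloaked mRNA. Weak-cloaked replicate 2, at 38.1, was the only transfected library above the lowest untransfected one, at 34.7, and the log2 fold change was -0.56 ± 0.13 (adjusted p = 0.011). MKI67, which coats mitotic chromosomes and is the antigen behind Ki-67 staining, measured 155, 158 and 140 in untransfected cells, 111, 99.9 and 61.3 with non-cloaked, 160, 62.4 and 71.3 with weak-cloaked, 81.9, 64.1 and 69.5 with medium-cloaked and 101, 90.4 and 58.3 CPM with strong-cloaked mRNA. All transfected libraries but weak-cloaked replicate 1 lay below the untransfected ones, and the log2 fold change was -0.82 ± 0.24 (adjusted p = 0.028). TOP2A, which untangles sister DNA and had the highest level per length of this group (54.4 CPM per kb of transcript in untransfected cells), measured 262, 315 and 362 in untransfected cells, 323, 238 and 199 with non-cloaked, 420, 354 and 223 with weak-cloaked, 383, 388 and 369 with medium-cloaked and 307, 281 and 372 CPM with strong-cloaked mRNA. Its groups overlapped, and the log2 fold change was 0.02 ± 0.17. SMC2, the partner of SMC4, was at -1.06 ± 0.69 and not called; its weak-cloaked libraries ran from 0.145 to 13.3 CPM (9 to 841 counts), a 91.6-fold spread.

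Among the 7 genes of the centromere and kinetochore, 3 fell and 1 rose, with a median of -0.64. NUF2 and SPC25 are both subunits of the NDC80 complex, which grips microtubules. SPC25 measured 23.9, 26.8 and 23.1 in untransfected cells, 15.8, 15.5 and 16.6 with non-cloaked, 20.9, 16.3 and 12.7 with weak-cloaked, 14.6, 15.7 and 13.6 with medium-cloaked and 17.1, 15.1 and 15.4 CPM with strong-cloaked mRNA. All 12 transfected libraries were below every untransfected one, weak-cloaked replicate 1 being closest at 20.9, and the log2 fold change was -0.64 ± 0.12 (adjusted p = 0.0041). NUF2 measured 13.3, 12.7 and 17.7 in untransfected cells, 10.2, 5.68 and 8.11 with non-cloaked, 13.1, 7.82 and 5.29 with weak-cloaked, 5.33, 6.36 and 6.03 with medium-cloaked and 5.31, 3.50 and 9.20 CPM with strong-cloaked mRNA. Weak-cloaked replicate 1 alone reached the untransfected range, and the log2 fold change was -1.05 ± 0.27 (adjusted p = 0.014). NDC80 itself was at -0.29 ± 0.22 and not called. CENPF, a large protein of the outer kinetochore, measured 37.3, 43.6 and 36.8 in untransfected cells, 26.5, 15.3 and 16.1 with non-cloaked, 43.6, 16.0 and 14.4 with weak-cloaked, 22.4, 21.6 and 19.6 with medium-cloaked and 24.9, 16.3 and 18.2 CPM with strong-cloaked mRNA. Weak-cloaked replicate 1 was level with the highest untransfected library and the other 11 transfected libraries were below the untransfected range, and the log2 fold change was -0.89 ± 0.26 (adjusted p = 0.028). CENPE, the kinetochore motor, was at -1.04 ± 0.36 (adjusted p = 0.052), and its untransfected libraries themselves were at 7.63, 1.09 and 5.99 CPM. CENPA, the centromeric histone H3, was at 0.17 ± 0.29.

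BIRC5 (survivin), the subunit of the chromosomal passenger complex that brings it to the centromere, went the other way. It had the highest level per length of this group (88.5 CPM per kb in untransfected cells) and measured 252, 228 and 239 in untransfected cells, 278, 324 and 324 with non-cloaked, 233, 339 and 375 with weak-cloaked, 318, 355 and 333 with medium-cloaked and 317, 332 and 376 CPM with strong-cloaked mRNA. Weak-cloaked replicate 1 lay within the untransfected range and the other 11 transfected libraries above it. The log2 fold change was 0.44 ± 0.12 (adjusted p = 0.019).

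Of 9 kinesins 3 fell and none rose, with a median of -0.5. KIF11 (Eg5), which pushes the spindle poles apart, measured 39.3, 43.9 and 60.4 in untransfected cells, 27.1, 17.9 and 15.7 with non-cloaked, 46.8, 20.7 and 13.6 with weak-cloaked, 23.2, 19.6 and 20.0 with medium-cloaked and 22.0, 20.6 and 19.2 CPM with strong-cloaked mRNA. The untransfected and transfected groups were apart except for weak-cloaked replicate 1, and the log2 fold change was -1.12 ± 0.26 (adjusted p = 0.0093). KIF15, which can take over from KIF11 in keeping the spindle bipolar, measured 10.1, 11.4 and 9.22 in untransfected cells, 4.95, 3.31 and 3.58 with non-cloaked, 10.8, 3.95 and 2.76 with weak-cloaked, 3.51, 4.63 and 3.82 with medium-cloaked and 5.46, 3.86 and 2.39 CPM with strong-cloaked mRNA. Only weak-cloaked replicate 1 reached the untransfected range, and the log2 fold change was -1.23 ± 0.30 (adjusted p = 0.012). KIF20B, a motor of late cytokinesis, measured 13.4, 17.5 and 14.4 in untransfected cells, 7.47, 3.80 and 5.60 with non-cloaked, 17.4, 6.03 and 3.23 with weak-cloaked, 8.70, 7.44 and 4.74 with medium-cloaked and 5.35, 5.20 and 5.51 CPM with strong-cloaked mRNA. Again weak-cloaked replicate 1 was with the untransfected libraries and the others lower, and the log2 fold change was -1.2 ± 0.34 (adjusted p = 0.022). KIF23 and KIF14, both needed for the cytokinetic midbody, were at -0.5 ± 0.18 (adjusted p = 0.057) and -0.82 ± 0.29 (adjusted p = 0.059). KIF20A, which carries the passenger complex to the midzone and had the highest level per length of the kinesins (26.9 CPM per kb in untransfected cells), measured 82.6, 86.2 and 90.0 in untransfected cells, 104, 114 and 87.2 with non-cloaked, 86.9, 95.4 and 110 with weak-cloaked, 107, 102 and 107 with medium-cloaked and 114, 119 and 93.2 CPM with strong-cloaked mRNA. Its groups overlapped, and it was at 0.26 ± 0.10 (adjusted p = 0.083). KIF4A, a chromosome-arm kinesin, was at -0.08, KIF18A, which damps chromosome movement, at -0.34 ± 0.21, and KIF2C (MCAK), a microtubule depolymerase, at 0.8 ± 0.42, its non-cloaked libraries alone running from 51.2 to 205 CPM.

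Of the 6 other proteins of spindle and midzone microtubules, 1 fell and none rose, with a median of -0.14. HMMR, a spindle pole protein, measured 25.8, 27.5 and 27.1 in untransfected cells, 13.6, 11.1 and 8.82 with non-cloaked, 33.0, 12.6 and 6.76 with weak-cloaked, 17.5, 13.8 and 14.0 with medium-cloaked and 13.7, 11.4 and 10.6 CPM with strong-cloaked mRNA. Weak-cloaked replicate 1 was above every untransfected library and the other 11 transfected libraries below, and the log2 fold change was -0.97 ± 0.30 (adjusted p = 0.032). TPX2, the activator of Aurora A on the spindle and the gene of this group with the highest level per length (60.9 CPM per kb in untransfected cells), measured 210, 255 and 194 in untransfected cells, 65.4, 205 and 170 with non-cloaked, 326, 310 and 227 with weak-cloaked, 319, 279 and 181 with medium-cloaked and 201, 238 and 250 CPM with strong-cloaked mRNA. Its groups overlapped widely, with non-cloaked replicate 1 lowest and weak-cloaked replicate 1 highest, and the pooled difference was 0.03. ASPM, at the spindle poles, PRC1, which bundles midzone microtubules, and NUSAP1, which stabilises microtubules near chromosomes, had adjusted p of 0.069, 0.097 and 0.079 at -0.5, -0.3 and 0.33. DLGAP5 (HURP) was at 0.15 ± 0.17. Of both cytokinesis genes, ECT2, the activator of RhoA at the cleavage furrow, measured 27.1, 29 and 45.2 in untransfected cells, 19.0, 10.3 and 11.9 with non-cloaked, 34.2, 17.5 and 11.4 with weak-cloaked, 19.0, 16.6 and 7.72 with medium-cloaked and 17.1, 13.9 and 14.3 CPM with strong-cloaked mRNA. All transfected libraries but weak-cloaked replicate 1 were below the untransfected ones, and it fell by 1.09 ± 0.29 on the log2 scale (adjusted p = 0.019). Anillin (ANLN), the scaffold of the contractile ring and the higher of the pair per length (7.87 CPM per kb in untransfected cells), measured 34.9, 43.7 and 34.4 in untransfected cells, 42.2, 26.7 and 17.1 with non-cloaked, 57, 64.3 and 28.6 with weak-cloaked, 50.3, 60.0 and 32.6 with medium-cloaked and 37.1, 40.5 and 51.3 CPM with strong-cloaked mRNA. Its groups overlapped and it was at 0.13 ± 0.27.

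The 6 genes of the anaphase-promoting complex, its activators and its targets moved in both directions, 3 higher and 2 lower. PTTG1 (securin), the inhibitor of separase and the gene with the highest level per length of all 51 (163 CPM per kb in untransfected cells), measured 202, 216 and 104 in untransfected cells, 283, 301 and 285 with non-cloaked, 233, 349 and 331 with weak-cloaked, 315, 337 and 331 with medium-cloaked and 324, 359 and 322 CPM with strong-cloaked mRNA. All 12 transfected libraries were above every untransfected one, and untransfected replicate 3 was the lowest of all at 104. The log2 fold change was 0.85 ± 0.18 (adjusted p = 0.0064). ESPL1 (separase), which securin holds inactive, measured 29.8, 30.3 and 34.3 in untransfected cells, 21.2, 28.7 and 27.2 with non-cloaked, 22.0, 17.6 and 18.7 with weak-cloaked, 13.7, 16.8 and 13.2 with medium-cloaked and 28.8, 22.8 and 19.7 CPM with strong-cloaked mRNA. Every transfected library was below every untransfected one, with the medium-cloaked libraries lowest. The log2 fold change was -0.63 ± 0.13 (adjusted p = 0.0059). All 12 transfected libraries lay below every untransfected one in 4 of the 51 genes (CDC27, SPC25, ESPL1 and TTK, the last not called), or 7.84%, against 5.74% of all tested genes, and above every one in 1 (PTTG1), or 1.96%, against 5.12%.

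CDC27, a scaffold subunit that docks the activators on the complex, measured 44.4, 36.3 and 35.5 in untransfected cells, 17.4, 19.7 and 6.66 with non-cloaked, 17.1, 6.51 and 5.16 with weak-cloaked, 14.6, 16.3 and 7.33 with medium-cloaked and 8.82, 17.8 and 18.0 CPM with strong-cloaked mRNA. The highest transfected library, at 19.7, was well under the lowest untransfected one, at 35.5, and the fall of 1.6 ± 0.35 on the log2 scale was the largest among the called genes of the set (adjusted p = 0.0074). The pseudogenes and close relatives looked up for PTTG1, CDC27, UBE2C, CDC20 and some other members had 0 to 21 counts in any library. Reads credited to those listed were thus few, and reads dropped between copies were not measured. CDC20, the activator that works in early mitosis, measured 185, 177 and 156 in untransfected cells, 203, 244 and 221 with non-cloaked, 179, 221 and 256 with weak-cloaked, 210, 214 and 208 with medium-cloaked and 247, 247 and 231 CPM with strong-cloaked mRNA. UBE2C, the ubiquitin-conjugating enzyme that starts the chains, measured 133, 128 and 122 in untransfected cells, 147, 156 and 156 with non-cloaked, 124, 168 and 176 with weak-cloaked, 157, 175 and 151 with medium-cloaked and 173, 177 and 178 CPM with strong-cloaked mRNA. In both, weak-cloaked replicate 1 was within the range of the untransfected libraries and the other 11 transfected libraries were above it. The log2 fold changes were 0.37 ± 0.10 for CDC20 (adjusted p = 0.019) and 0.34 ± 0.10 for UBE2C (adjusted p = 0.023), and both are among the calls that total-count scaling ended. FZR1 (CDH1), the activator of late mitosis and G1, was at 0.32 ± 0.19 and not called.

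**Figure D3:**
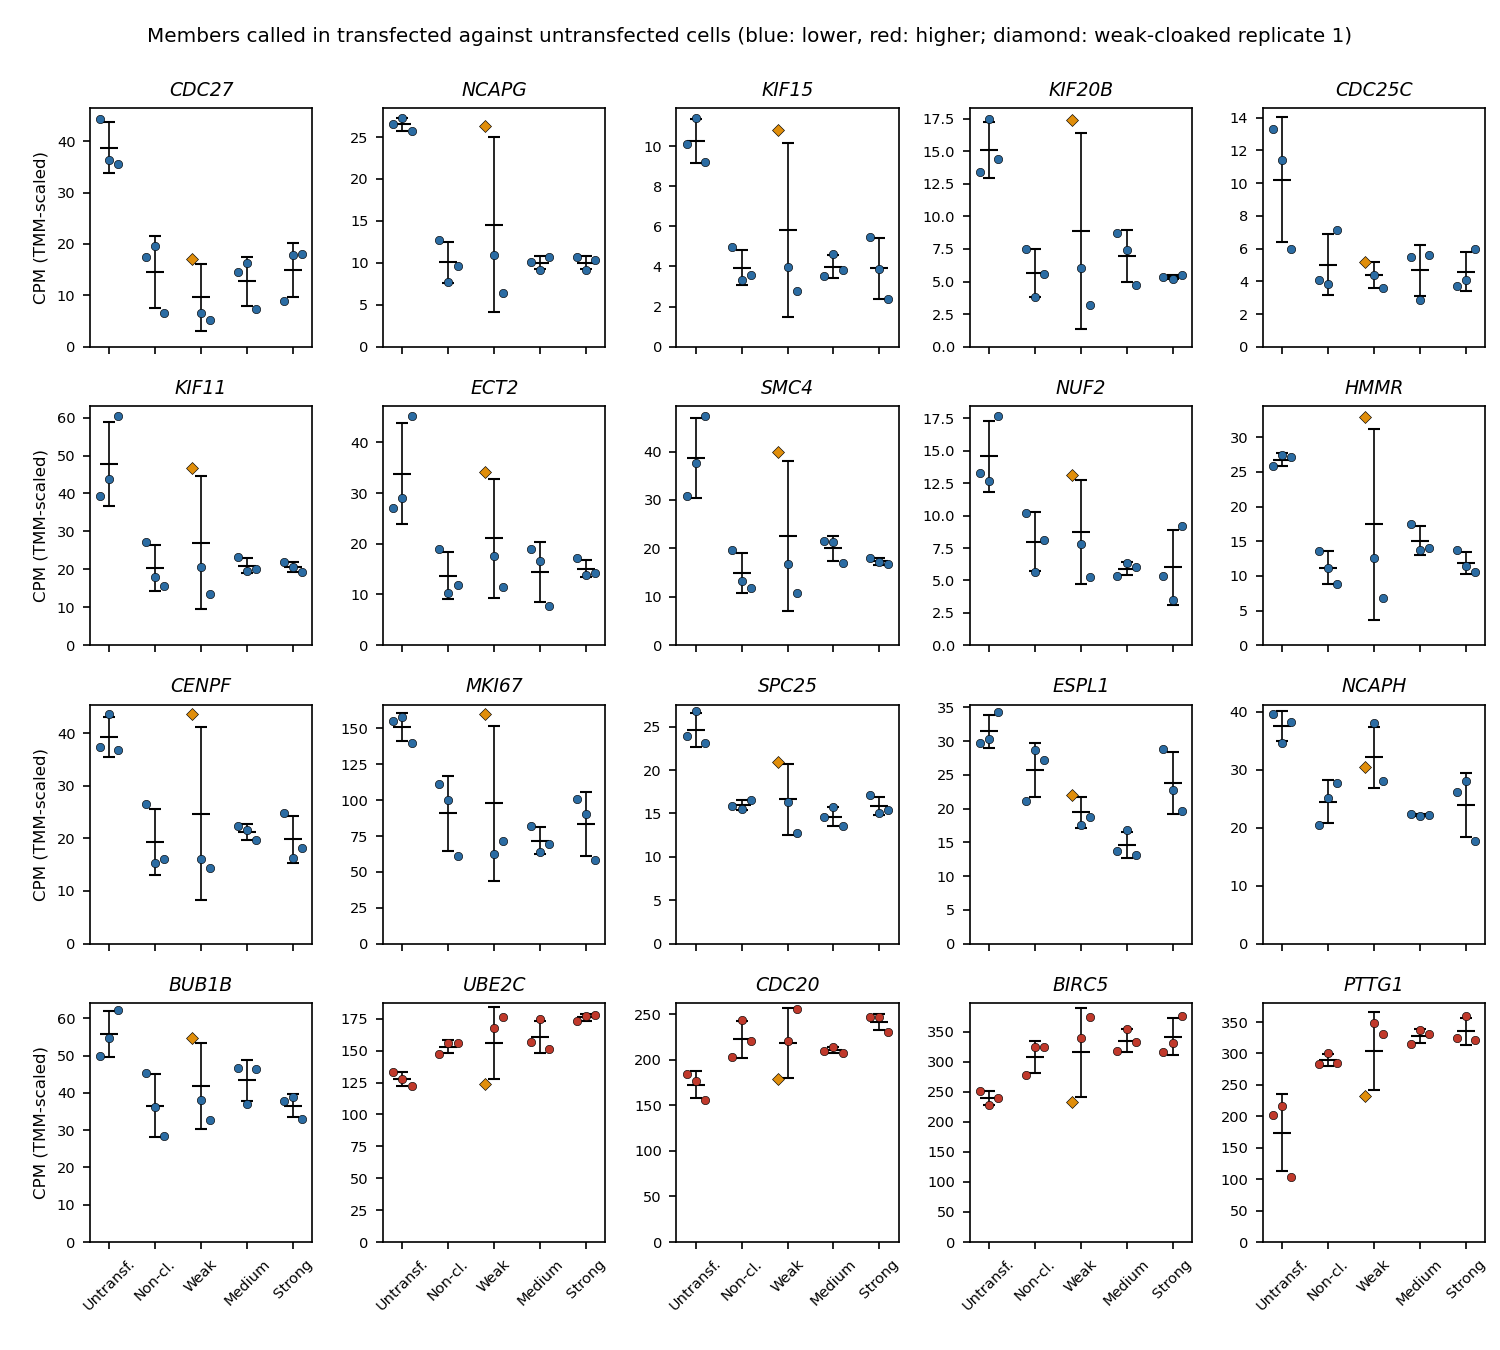
Level (CPM, linear axes from 0) of the 20 called genes in each library, in order of log2 fold change; horizontal marks and bars are the mean and SD of the 3 libraries of a group, and the orange diamond is weak-cloaked replicate 1. In NCAPG, KIF15, SMC4 and HMMR the diamond lies with the untransfected libraries and the other 11 transfected libraries below; in SPC25, ESPL1 and CDC27 all 12 lie below.

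Of 5 spindle checkpoint genes 1 fell. BUB1B (BUBR1), part of the mitotic checkpoint complex that holds CDC20, measured 50, 54.8 and 62.3 in untransfected cells, 45.3, 36.1 and 28.3 with non-cloaked, 54.8, 38.1 and 32.8 with weak-cloaked, 46.7, 37.0 and 46.4 with medium-cloaked and 37.7, 38.8 and 33.1 CPM with strong-cloaked mRNA. Weak-cloaked replicate 1 was inside the untransfected range and the other 11 transfected libraries below it, and the log2 fold change was -0.5 ± 0.15 (adjusted p = 0.033), a call that ended under several alternatives, length and GC offsets among them (adjusted p = 0.061). BUB3, its binding partner and the gene of this group with the highest level per length (28.1 CPM per kb in untransfected cells), measured 202, 209 and 250 in untransfected cells, 252, 236 and 210 with non-cloaked, 238, 303 and 269 with weak-cloaked, 300, 327 and 308 with medium-cloaked and 237, 278 and 296 CPM with strong-cloaked mRNA. It was at 0.29 ± 0.10 (adjusted p = 0.051), with overlapping groups. BUB1, the kinase that marks centromeres for the checkpoint, was at -0.2, and MAD2L1 (MAD2) at -0.08 ± 0.15. TTK (MPS1), the kinase that starts checkpoint signalling, was at -1.02 ± 0.61 and not called, and its weak-cloaked libraries spread 87.1-fold (7 to 550 counts).

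Of 9 cyclins and cell-cycle kinases or phosphatases 1 fell and none rose. CDC25C, a phosphatase that activates CDK1 at mitotic entry, measured 13.3, 11.4 and 5.95 in untransfected cells, 4.08, 3.84 and 7.15 with non-cloaked, 5.15, 4.4 and 3.59 with weak-cloaked, 5.51, 2.87 and 5.61 with medium-cloaked and 3.73, 4.07 and 5.97 CPM with strong-cloaked mRNA. Untransfected replicate 3, at 5.95, was below the highest transfected libraries, at 7.15 and 5.97, and the log2 fold change was -1.13 ± 0.26 (adjusted p = 0.0086). Cyclin B1 (CCNB1), the activating subunit of CDK1 with the highest level per length of this group (94.4 CPM per kb in untransfected cells), measured 216, 208 and 190 in untransfected cells, 201, 215 and 178 with non-cloaked, 221, 202 and 199 with weak-cloaked, 206, 198 and 202 with medium-cloaked and 215, 217 and 178 CPM with strong-cloaked mRNA. Its groups overlapped fully and its log2 fold change was -0.01 ± 0.08 (95% interval -0.19 to 0.17). CCNB2 was at 0.02 ± 0.09 and CCNA2 at -0.11. CDK1 was at 0.35 ± 0.24, PLK1 at 0.56 ± 0.38, AURKA at -0.42 ± 0.19, AURKB at 0.25 ± 0.11 and CDC25B at 0.48 ± 0.22, none of them called. FOXM1, the transcription factor of late cell-cycle genes, measured 51.5, 43.1 and 47.8 in untransfected cells, 42.7, 51.3 and 74.6 with non-cloaked, 42.0, 43.6 and 67.3 with weak-cloaked, 34.9, 48.3 and 44.0 with medium-cloaked and 47.9, 44.2 and 35.5 CPM with strong-cloaked mRNA; its groups overlapped and its log2 fold change was 0.01 ± 0.18 (13.6 CPM per kb in untransfected cells).

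Over all 51 genes weak-cloaked replicate 1 was the highest of the 12 transfected libraries in 23 (45.1%) and the lowest in 7 (13.7%), against 22.3% and 18.1% of all tested genes. In the rest it lay between the others, as in FOXM1 and CCNA2. Among the 16 genes that fell it was highest in 12 (75%), against 63.5% of all genes called lower, and in 11 (68.8%, against 46.3%) it was at or above the lowest untransfected library. Without it, the 11 other transfected libraries lay below every untransfected one in 16 of the 51 genes (31.4%; 14 called lower, and TTK and KIF23 not called), against 11.8% of all tested genes, and above every one in 4 (7.84%), against 10.0%. Since the calls were made on the same libraries, the 14 of 16 genes that fell and 4 of 4 that rose with such a separation are set beside the shares of all called genes, 73.0% of those lower and 79.5% of those higher. Weak-cloaked replicate 3 was the lowest transfected library in 8 of the 16. What sets these libraries apart was not tested.

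Against untransfected cells, each grade on its own called fewer genes. The 4 comparisons share the 3 untransfected libraries, so their values stand side by side and are not independent. Non-cloaked mRNA gave 3 lower and 0 higher of 51 (6.50% of all tested genes were called, 2.66% lower and 3.84% higher): SPC25 at -0.63 ± 0.16, SMC4 at -1.38 ± 0.37 and NCAPG at -1.4 ± 0.37. Weak-cloaked mRNA gave 2 lower and 0 higher (3.29%, 1.19% lower and 2.11% higher): CDC27 at -2.01 ± 0.51 and ESPL1 at -0.69 ± 0.17. Medium-cloaked mRNA gave 11 lower and 4 higher (13.7%, 7.49% lower and 6.25% higher), the 4 being BUB3 at 0.5 ± 0.13, PTTG1 at 0.91 ± 0.22, BIRC5 at 0.48 ± 0.15 and NUSAP1 at 0.52 ± 0.16. Strong-cloaked mRNA gave 9 lower and 4 higher (15.1%, 7.11% lower and 7.99% higher), the 4 being CDC20 at 0.48 ± 0.12, UBE2C at 0.47 ± 0.12, PTTG1 at 0.95 ± 0.22 and BIRC5 at 0.51 ± 0.15. All 20 genes called over the pooled groups had the same sign in each of the 4. They were picked by the mean of these same groups, which favours such agreement, so it is no replication. The share of all called genes with this agreement is not given here. AURKA (-0.9 ± 0.25), BUB3 and NUSAP1 with medium-cloaked and PRC1 (-0.64 ± 0.16) with strong-cloaked mRNA were called in that grade and not in the pooled test. The medians were -0.39, -0.08, -0.16 and -0.24 from non-cloaked to strong. All 3 libraries of a grade lay below the 3 untransfected ones in 21 genes with non-cloaked mRNA and above them in 6, where 18.0% and 16.6% of all tested genes did so. The counts were 5 below and 2 above with weak-cloaked (11.2% and 9.92% of all tested genes), 20 and 12 with medium-cloaked (22.3% and 19.2%) and 23 and 8 with strong-cloaked mRNA (21.2% and 19.0%).

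These single-grade counts rest on few libraries. Without weak-cloaked replicate 1 the weak grade called 21 genes (17 lower, 4 higher) in place of 2, where 21.3% of all tested genes were called. Without weak-cloaked replicate 2 or 3, or untransfected replicate 1, it called 0, and without untransfected replicate 2 or 3 it called 1. For non-cloaked mRNA the count went from 3 to 0 without untransfected replicate 1 or 3 or non-cloaked replicate 2 or 3, and to 1 without untransfected replicate 2. For medium-cloaked mRNA it went from 15 to 3, 4 and 9 without untransfected replicate 1, 2 and 3, and to 4, 2 and 1 without medium-cloaked replicate 1, 2 and 3. For strong-cloaked mRNA it went from 13 to 3, 2 and 4, and to 4, 1 and 2, in the same order. Apart from the 21.3% above, the shares of all tested genes called in these reduced fits are not given here. A larger count in one grade than in another is no test of a difference between the grades.

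Cloaking was compared directly with non-cloaked mRNA, and edgeR called none of the 51 genes in any grade, while DESeq2 called ESPL1 with medium-cloaked mRNA. edgeR called 0 for weak (0.00544% of all tested genes), 0 for medium (0.00%) and 0 for strong (0.00%), with 5, 7 and 1 genes at an unadjusted p below 0.05, against 3.92%, 9.50% and 3.61% of all tested genes. DESeq2 called 0, 1 and 0 (ESPL1 at -0.81 ± 0.18, DESeq2 adjusted p = 0.012). The shares of all tested genes that DESeq2 called are not given here, so its counts stand without a background. The medians were 0.16, 0.07 and 0.09. All 3 cloaked libraries lay above the 3 non-cloaked ones in 2 genes with weak, 13 with medium and 3 with strong cloaking, where 3.17%, 10.9% and 4.84% of all tested genes did so, and below them in 0, 3 and 1 (3.71%, 11.3% and 5.21%). ESPL1 had the smallest p: it was at -0.82 ± 0.17 with medium-cloaked mRNA (95% interval -1.19 to -0.44; unadjusted p = 0.00036 and adjusted p = 0.46 in the edgeR fit). Its level there was 14.6 ± 1.97 CPM against 25.7 ± 3.99 CPM (SD, 3 libraries each), with no overlap. It was at -0.4 ± 0.17 with weak and -0.11 ± 0.17 with strong. TPX2 was at 0.97 ± 0.33 with weak (interval 0.26 to 1.68), 0.82 ± 0.33 with medium and 0.65 ± 0.33 with strong, set against a non-cloaked group at 65.4, 205 and 170 CPM. BUB3, DLGAP5, TOP2A, NUSAP1 and CCNA2 were at 0.42, 0.63, 0.58, 0.43 and 0.5 with medium-cloaked mRNA (adjusted p 0.46 to 0.50), and PRC1 at -0.47 ± 0.16 with strong (adjusted p = 1.0). KIF18A, ANLN and NCAPH were at 0.77, 0.8 and 0.39 with weak (adjusted p = 0.97).

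The precision limits what the absence of calls can show. The 95% interval of a cloaked against non-cloaked difference reached a median of 0.54 to either side over the 51 genes, and lay wholly between -1 and 1 for 33 genes with weak, 32 with medium and 37 with strong cloaking. CCNB1 had intervals of -0.16 to 0.29, -0.2 to 0.26 and -0.19 to 0.27, so changes beyond those bounds lie outside the intervals, while the intervals of TTK and SMC2 passed 1 in both directions. An F test across the 4 transfected groups called 0 of 51 (0.00544% of all tested genes), with 5 at an unadjusted p below 0.05, against 4.10% of all tested genes: AURKA, BUB3, ESPL1, PRC1 and NCAPH.

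**Figure D4:**
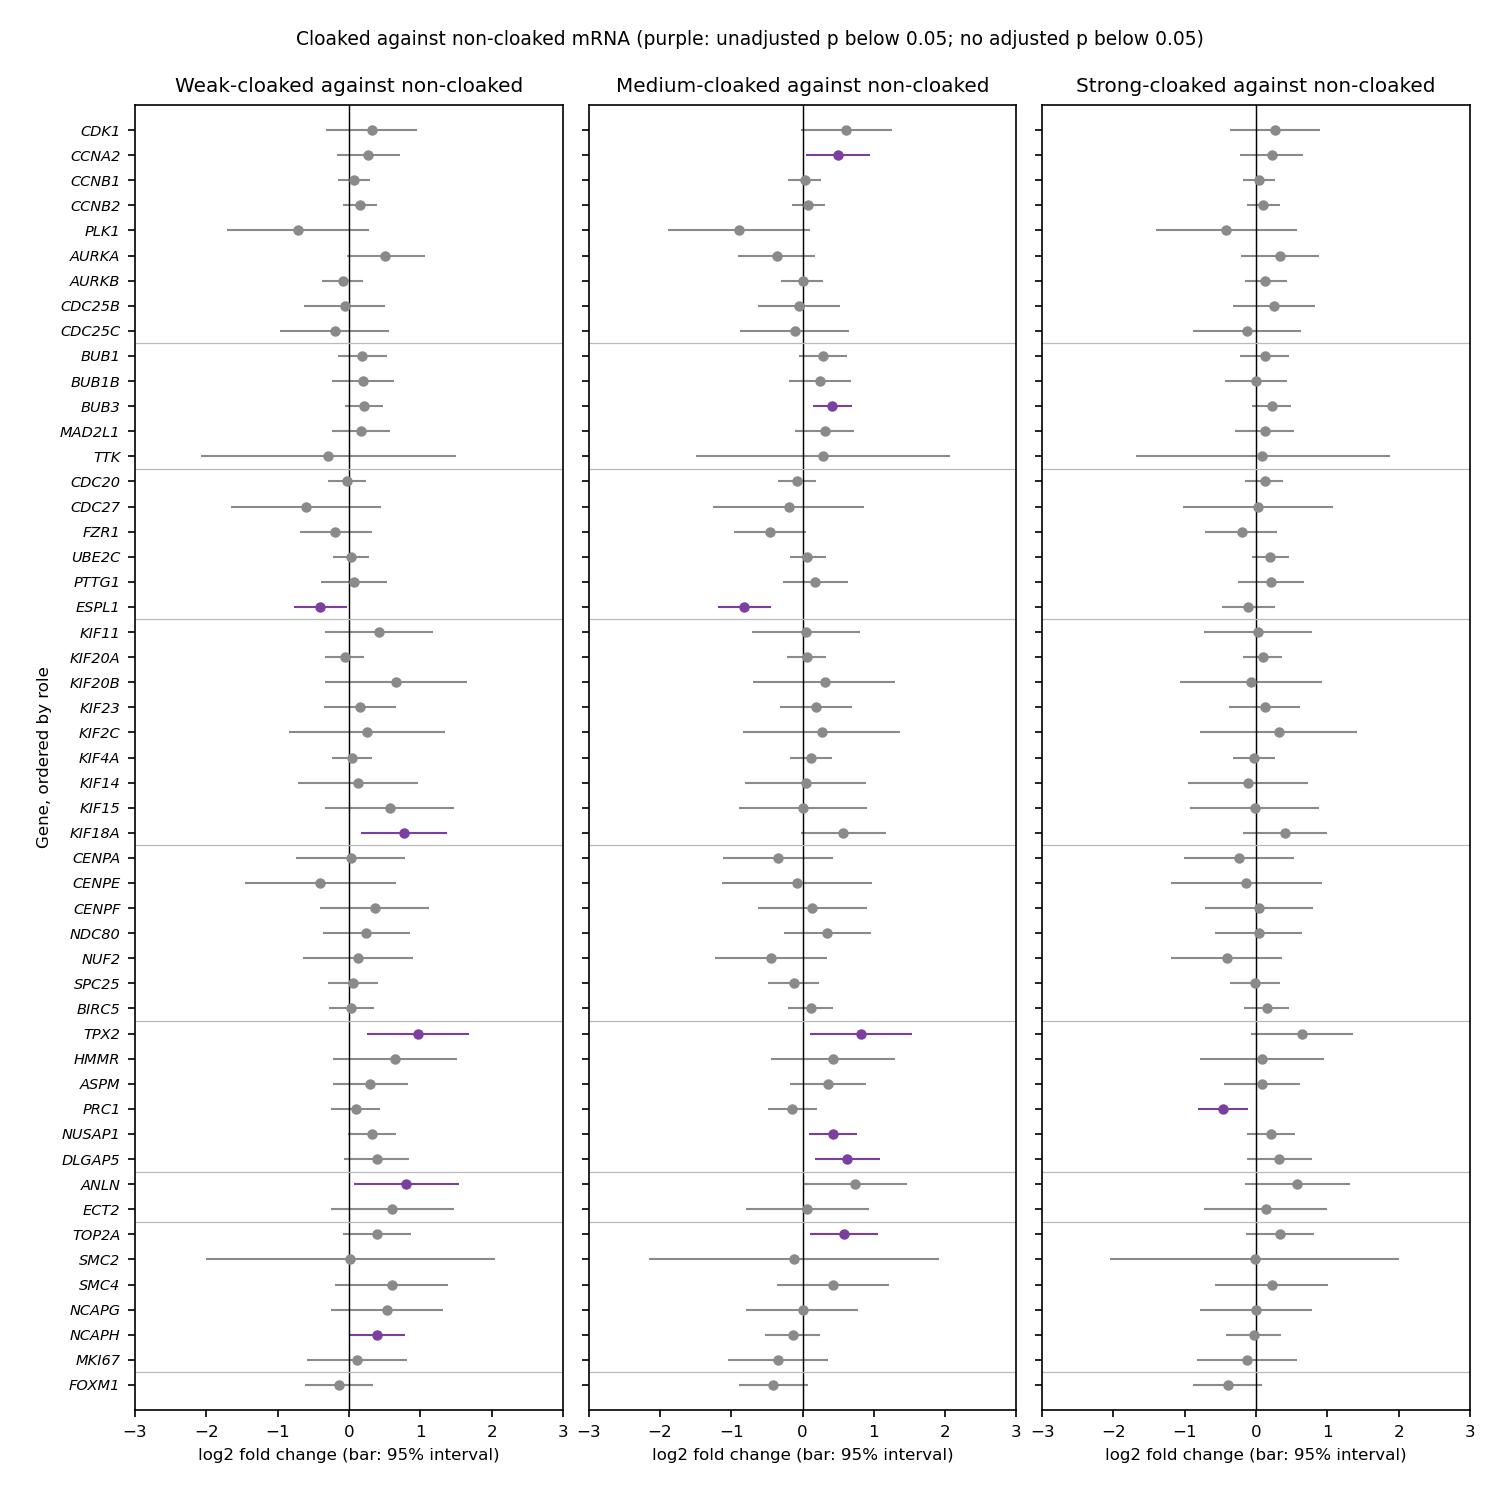
Log2 fold change of each of the 51 genes in weak-, medium- and strong-cloaked against non-cloaked groups (3 libraries each), with 95% intervals; purple marks an unadjusted p below 0.05. Intervals of most genes include 0, ESPL1 with medium cloaking lies at -0.82, and none passes after adjustment in the edgeR fit plotted.

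By the medians, the genes that fell had longer and more AT-rich transcripts than all tested genes. The longest annotated transcript had a median of 4751.5 nt and 39.5% GC in the 16 genes that fell, 1423.5 nt and 51.1% in the 4 that rose, 3597 nt and 42.5% in the 31 not called, and 3180 nt and 49.4% over all tested genes. Of the 16, SPC25 (1354 nt), NUF2 (1969), CDC25C (2137), NCAPH (2952) and HMMR (3102) were shorter than that median. Of the 51, 28 were in the bin of lowest GC content (at most 42.8%) when all tested genes were cut into 4 equal bins. In that bin 11 of the 28 fell (39.3%) and 0 rose, with a median of -0.73. Of all 4585 tested genes in it 19.5% fell and 4.06% rose, and their median was -0.3. In the second bin 4 of 13 fell and 1 rose, against 13.7% and 9.05% of all tested genes in it. In the third 0 of 5 fell and 2 rose, against 10.3% and 13.2%. In the fourth 1 of 5 fell (ESPL1 at 57% GC) and 1 rose, against 7.39% and 15.1%. Bins of 5 genes are too small to be told from these shares. Over the 51 genes, which share the libraries, log2 fold change and GC content had a Pearson r of 0.58 and a Spearman rho of 0.62, and log2 fold change and log2 length -0.45 on both.

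With offsets for length and GC content in each library the median of the 51 genes went from -0.29 to -0.02. The median of all tested genes under the same offsets is not given here. NCAPG, KIF11, KIF15, SMC4, SPC25, ESPL1, CDC27, CDC25C, NUF2, HMMR, ECT2, KIF20B and NCAPH were still called lower, and BUB1B, CENPF and MKI67 were not: BUB1B went from -0.5 to -0.3 (adjusted p = 0.061), CENPF from -0.89 to -0.53 (adjusted p = 0.056) and MKI67 from -0.82 to -0.56 (adjusted p = 0.058). PTTG1, BIRC5 and CDC20 were still called higher, UBE2C, which went from 0.34 to 0.16, was not (adjusted p = 0.13), and CDK1, BUB3, KIF20A, NUSAP1, DLGAP5 and TOP2A were called higher at 0.58, 0.63, 0.33, 0.47, 0.40 and 0.38. The part of length and base composition in the calls that depend on the offsets was not tested.

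**Figure D5:**
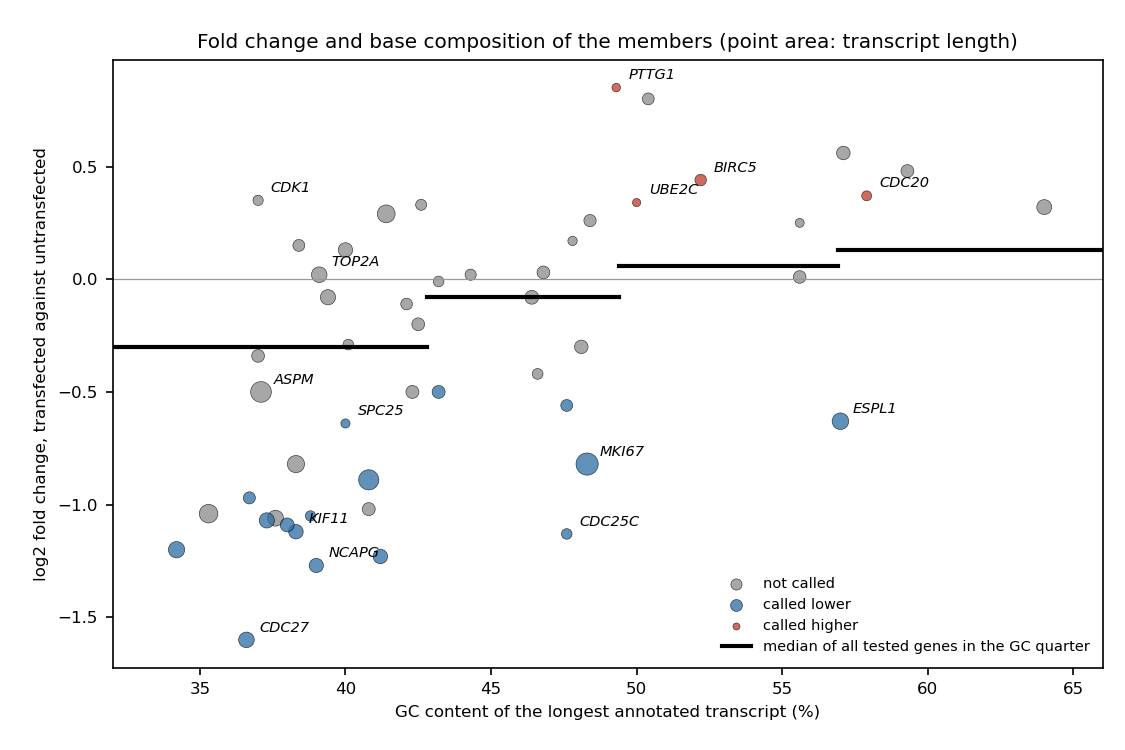
Log2 fold change of the 51 genes (transfected against untransfected) against the GC content of the longest annotated transcript, with point area by its length; black lines are the medians of all tested genes in each of the 4 GC bins. Genes called lower lie mostly in the bin up to 42.8% GC, below its line at -0.3, and genes called higher from 49.3% GC upwards.

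The 51 genes did not vary as a single block across libraries. Over the 15 libraries the 1275 pairs had a median Pearson r of 0.12, and 541 pairs were below 0. The same values for other sets of genes are not given here, so these stand without a background. SMC4 (0.93), HMMR (0.92), BUB1 and KIF23 (0.91 each) followed the mean of the standardised genes most closely, and AURKB (-0.76), CDC20 (-0.75) and BIRC5 (-0.74) ran against it. Each of the 51 genes is itself part of that mean. Other genes of the matrix that followed that mean closely were CD2AP and UFL1 (r of 0.95), ESYT2 and RIOK2 (0.94). These correlations are descriptive: the libraries share groups, depth and base composition.

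Other mitotic genes were taken from lists outside the 51, and the counts differed from list to list; no test compared the lists. Of 14 cohesin genes and regulators 9 fell and 0 rose (median -0.74), among them SMC3, a ring subunit, at -1.28 ± 0.22, the cohesin acetyltransferase ESCO2 at -1.79 ± 0.37 and the centromere protector SGO2 at -0.94 ± 0.25. Of 30 kinetochore and checkpoint genes 11 fell and 3 rose (median -0.36), with CENPC and DSN1, of the inner and outer kinetochore, at -1.07 and -1.02 and HJURP, the chaperone of CENPA, at 0.47. Of 15 other subunits and partners of the anaphase-promoting complex 5 fell and 3 rose: CDC16, ANAPC4 and ANAPC7 were at -0.95, -0.9 and -0.57, and ANAPC11, the catalytic RING subunit, CDC26 and the chain-extending enzyme UBE2S at 0.58, 0.63 and 0.72. Of 13 mitotic entry genes 1 fell (CCNF, -0.81) and 3 rose, the CDK-binding CKS2 at 0.97, CKS1B at 0.59 and the kinase NEK2 at 0.75. Of 11 genes of MuvB and its partners 3 fell, RBL1 (p107) at -1.25 among them, and LIN52 rose at 0.45. Of 23 tested spindle assembly and cytokinesis genes 3 fell (HAUS6, DEPDC1 and CKAP2) and 0 rose, of 4 further condensin genes NCAPH2 fell (-0.54), and of 3 passenger complex genes none was called. Of 11 S phase genes 5 fell, with the helicase subunits MCM5 and MCM6 at -0.54 and -0.46, and RRM2 rose at 0.38. The shares over all tested genes given above, 12.7% lower and 10.4% higher, are the background for these counts.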

How the data were processed

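RNA from 15 HepG2 samples with an RNA integrity number of at least 7.0 was made into poly(A)-selected, strand-specific libraries and read as 150 bp pairs, per the labels' protocols. Raw counts of reads for each gene symbol were deposited by the authors as 1 matrix. The submitters' processing notes name HISAT2, HTSeq, DESeq2 1.46.0, R 4.4.2 and GRCh38. Their annotation release and strand setting were not given in the sources used here, so reads of overlapping genes cannot be told apart. Of 41412 rows, 14176 were 0 throughout.

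Counts were analysed here in R 4.3.3 with edgeR 4.0.16: filterByExpr (18380 genes left), TMM, robust quasi-likelihood fit of 1 mean per group to all 15 libraries, Benjamini-Hochberg adjustment over all tested genes, called below 0.05. The biological coefficient of variation was 0.344. CPM are TMM-scaled, without a pseudocount. Groups came from the sample titles; replicates differed by more than sampling noise (chi-square per degree of freedom 73.9 to 231), and the labels call them biological. Length and GC content came from GENCODE 29. Pseudogenes and close relatives were a chosen list of symbols looked up in the count matrix. The procedure was tested on simulated data. Alternatives were DESeq2 1.42.0, other scalings and filters, length and GC offsets, a replicate block, fits of only the groups compared, and fits without each library.

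The 51 genes, the roles and the other lists were chosen with earlier results of these data known, and no test was run over a list. Values per library are given for called genes (all 16 lower, where the rule set 10 in each direction) and for the gene of each role with the highest level per length; the 5 genes most like the mean were ranked by Pearson r, and 1 of them is not reported here.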

Additional observations from a re-analysis of the deposited data

Results flagged for a closer look

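In 3 genes, every library of 1 transfected group lay on one side of the untransfected mean and every library of another on the other side. The share of all tested genes that meet this rule is not given here, so the count of 3 stands without a background. TPX2, the spindle activator of Aurora A, averaged 147 ± 72.7 CPM (SD, n = 3) with non-cloaked and 288 ± 53.2 with weak-cloaked mRNA around an untransfected mean of 220; the direct comparison gave 0.97 ± 0.33 on the log2 scale (edgeR adjusted p = 0.97). Cyclin A2 (CCNA2) averaged 76.1 ± 13.9 with non-cloaked and 107 ± 0.860 with medium-cloaked mRNA around 97.4 (0.5 ± 0.21, edgeR adjusted p = 0.50), and 88.4 ± 5.92 with strong-cloaked mRNA. The checkpoint gene MAD2L1 averaged 99.4 ± 10.0 with non-cloaked and 123 ± 6.34 with medium-cloaked mRNA around 116 (0.31 ± 0.19, edgeR adjusted p = 0.65), and 108 ± 6.01 with strong-cloaked mRNA. The difference between medium- and strong-cloaked mRNA, 107 against 88.4 CPM for CCNA2 and 123 against 108 for MAD2L1, was not tested. In both genes untransfected replicate 3 was the highest untransfected library, at 133 and 162 CPM.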

How the results depend on the processing

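Over 23 alternatives, the 20 genes called in all transfected against untransfected cells kept their call in 415 of 460 cases and lost it in 45, of which 31 came from leaving out an untransfected library; no call changed direction. With 1 library left out the count of 20 ran from 11 to 28; other settings gave 20 to 26. For non-cloaked against untransfected cells the count of 3 became 17 with DESeq2, 1 with no filter on low counts, 5 with a filter of 50 counts in 3 libraries, 5 with length and GC offsets and the replicate block, 7 with only the groups compared, and 0 to 4 with 1 library left out. For weak-cloaked the count of 2 became 5 with DESeq2, 0 with no filter, 5 with length and GC offsets, 7 with these and the replicate block, 0 with only the groups compared, and 0 to 21. For medium-cloaked the count of 15 became 8 with no filter and 1 to 9. For strong-cloaked the count of 13 became 20 with DESeq2, 20 with only the groups compared, and 1 to 4. Medium-cloaked against non-cloaked mRNA went from 0 to 1 (ESPL1) with DESeq2; the other comparisons between transfected groups stayed at 0 in every alternative run. The causes were not tested, except that leaving out a library leaves fewer samples and no filter adds genes to the adjustment. The counts in this paragraph are given without the shares of all tested genes called under the same settings.

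The labels do not say whether equal replicate numbers mark samples handled together. Over 30 same-number pairs, the correlation of deviations from the group means ran from -0.06 to 0.17, with 2 above 0.1. Low correlations cannot show that no batch was shared. With the replicate block the calls were 22 for all transfected, 8 for non-cloaked and 1 for weak-cloaked against untransfected cells. The shares of all tested genes called with the block are not given here, so these counts stand without a background. Replicates differed by more than sampling noise, and 3 libraries per group leave small differences between grades unresolved. The part of depth was not tested.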
